A study of Homo sapiens with 33 samples.

Results

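RNF2 (RING1B) and 9 of its partners in Polycomb repressive complex 1 (PRC1), namely RING1, BMI1, PCGF1, PCGF2, PCGF3, PCGF5, PCGF6, CBX2 and CBX8, were followed by RNA-seq in HEK293T cells carrying base editors. These 10 genes were taken by symbol from a count table of 26475 genes, and all 10 were among the 14613 genes that passed the filter on low counts. HEK293T is a human embryonic kidney cell line. The 11 groups of 3 libraries each were ABEmax, miniABEmax-V82G, Target-AID, SpACE and nCas9, each with a guide RNA named RNF2 or one named HEKsite2, and GFP without a guide. ABEmax and miniABEmax-V82G are the adenine (A-to-G) editor controls, Target-AID is the cytosine (C-to-T) editor control, SpACE is the dual adenine and cytosine editor, and nCas9, a Cas9 nickase with no deaminase, and GFP are the negative controls. The constructs were brought in on plasmids that also encode EGFP, and GFP-positive cells were sorted 36 to 40 h after transfection, so expression was transient. The same amount of construct plasmid is listed for every group. A guide plasmid is listed on top of it for every group but GFP. The RNF2 guide is aimed at the RNF2 gene itself, so that RNF2 messenger RNA is the readout of the targeted gene, while the other 9 genes show what else of the complex changed with it. The labels do not say whether the 3 libraries of a group came from separate cultures, so the p-values below measure only the spread between libraries.

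PRC1 is an E3 ubiquitin ligase that attaches a single ubiquitin to histone H2A at silenced developmental genes. Its catalytic core is RNF2 or its paralog RING1 (RING1A), paired with 1 protein of the PCGF family. PCGF2 (MEL18) and BMI1 (PCGF4) take part in canonical complexes, in which a chromodomain protein such as CBX2 or CBX8 reads the H3K27me3 mark laid down by Polycomb repressive complex 2 (PRC2). PCGF1, PCGF3, PCGF5 and PCGF6 define variant complexes, which hold RYBP or YAF2 in place of a CBX protein.

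On GRCh38, with the GENCODE 29 annotation, RNF2 lies at chr1:185045364-185102608 on the plus strand and RING1 at chr6:33208495-33212722 on the plus strand. BMI1 (chr10:22321211-22331484, plus), PCGF5 (chr10:91163012-91284331, plus) and PCGF6 (chr10:103302796-103351144, minus) share chromosome 10. PCGF2 (chr17:38733897-38749817, minus), CBX2 (chr17:79778132-79787983, plus) and CBX8 (chr17:79792132-79801683, minus) share chromosome 17, where CBX2 and CBX8 are 4148 bp apart on opposite strands. PCGF1 lies at chr2:74505043-74508580 on the minus strand and PCGF3 at chr4:705748-770640 on the plus strand. The promoter windows of RNF2, the gene the guide targets, and of PCGF1, the gene that was higher with all 4 editors, are shown first. They run from 250 bases before to 50 bases after the transcription start in the RefSeq annotation of GRCh38.p14, at chr1:185045308-185045607 (plus strand) and chr2:74507646-74507945 (minus strand), with capitals marking GC boxes (GGGCGG on either strand, overlapping matches counted).
RNF2: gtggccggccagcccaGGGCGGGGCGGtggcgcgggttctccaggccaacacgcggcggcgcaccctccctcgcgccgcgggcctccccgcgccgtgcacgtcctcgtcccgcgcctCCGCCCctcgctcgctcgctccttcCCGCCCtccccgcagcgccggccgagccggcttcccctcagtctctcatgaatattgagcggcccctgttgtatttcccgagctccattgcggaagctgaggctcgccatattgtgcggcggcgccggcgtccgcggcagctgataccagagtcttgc
PCGF1: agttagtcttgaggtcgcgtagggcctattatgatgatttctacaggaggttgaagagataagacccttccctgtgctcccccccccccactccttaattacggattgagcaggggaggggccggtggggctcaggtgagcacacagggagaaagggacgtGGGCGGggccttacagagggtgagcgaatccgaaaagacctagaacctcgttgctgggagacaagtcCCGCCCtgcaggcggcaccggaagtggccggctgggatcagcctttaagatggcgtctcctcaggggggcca
The RNF2 window had 73.0% G and C, 41 CG dinucleotides and 4 GC boxes, against a median of 58.7% G and C and 14 CG dinucleotides over all 35116 windows of the same length. The PCGF1 window had 59.7% G and C, 14 CG dinucleotides and 2 GC boxes. This PCGF1 window lies wholly inside the GENCODE span of the gene given above, and the RNF2 window runs across the GENCODE start. RefSeq and GENCODE thus place these starts differently, and the values describe the RefSeq windows only. A GC box stood in 15786 of the 35116 windows (45.0%) and in 9 of the 12 windows that the table held for 8 of the 10 genes. The letters GAANNTTC or TTCNNGAA, a heat shock element pair searched on both strands, stood in 13.5% of all windows and in 1 window here, of PCGF5. The letters TGATGNAA, the core of an amino acid response element on either strand, stood in 3.6% of all windows and in 1 window here, of PCGF6. A match is a description of the letters and not a bound site.

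The libraries held 6790209 to 11200406 counts. The Pearson r between each library and its group mates across genes was at least 0.992, and none of the 33 pairs of libraries within a group was a duplicate. HEK293 marker genes (NEFL, NEFM, INA, PAX2, LIN28B and IGF2BP1) summed to 471 to 674 CPM (counts scaled to library size) in every library. The largest parts were IGF2BP1 (230 to 337 CPM) and LIN28B (121 to 203 CPM), while PAX2 was nearly absent at 0 to 0.775 CPM. Liver line markers summed to at most 2.01 CPM and blood markers to at most 2.66 CPM with HBG1 at 0 throughout. The 5 fibroblast markers summed to 10.2 to 18.7 CPM in the groups with a construct and to 20.5 to 27.3 CPM in GFP cells, which also stood highest for the HEK293 markers. Most of the fibroblast sum was COL1A1 (5.475 to 9.649 CPM), COL3A1 (3.122 to 14.88 CPM) and LUM (0.9585 to 4.509 CPM). COL1A2 and DCN were nearly absent, at no more than 0.2565 and 0.5602 CPM. In sorted bulk samples, fewer cells of a kind and less RNA per cell cannot be told apart.

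Divided by exon length, mean levels over the 33 libraries placed PCGF6 at the top with 22.1 CPM per kb, followed by RING1 with 19.8, CBX2 with 15.6 and RNF2 with 15.05 CPM per kb. PCGF3 (9.76 CPM per kb) and PCGF5 (9.51 CPM per kb) came next, then PCGF1 (5.98 CPM per kb) and CBX8 (3.096 CPM per kb). PCGF2 (1.196 CPM per kb) and BMI1 (1.02 CPM per kb) were lowest. This order pools the groups: RNF2 averaged 8.98 CPM per kb in nCas9 cells with the RNF2 guide, its lowest group, and 19.4 CPM per kb in GFP cells, its highest, where PCGF6 (18.4) and RING1 (16.8 CPM per kb) were below it. The library ranges of neighbours in this order overlapped except between PCGF1 and CBX8 and between CBX8 and PCGF2. BMI1 rested on 25 to 68 counts per library. A read-through transcript annotated over it on the same strand, COMMD3-BMI1, is listed at 0 counts in every library, and how reads shared by the pair were assigned is not given in the sources used here. PCGF2 overlaps CISD3 on the opposite strand, and the strand setting of the counting is not given in the sources used here.

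All 10 genes were measured in all 11 groups, and a joint edgeR quasi-likelihood test of any difference among the groups called 7 of the 10 at an adjusted p below 0.05, where 73.9% of all genes tested were called. The 7 were RNF2 (adjusted p = 3.84e-16), CBX2 (4.79e-11), PCGF1 (9.41e-06), PCGF5 (1.91e-05), PCGF6 (6.01e-05), RING1 (0.000342) and CBX8 (0.00109). PCGF2 (0.0714), BMI1 (0.111) and PCGF3 (0.278) were not called. The highest group mean of RNF2 was 2.16 times its lowest, the widest span of the 10 on the CPM scale. The corresponding ratios were 1.92 for PCGF2, 1.59 for BMI1, 1.56 for PCGF1, 1.46 for CBX8, 1.44 for CBX2, 1.38 for PCGF6, 1.36 for RING1, 1.31 for PCGF5 and 1.14 for PCGF3.

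RNF2 was lower with the RNF2 guide than with the HEKsite2 guide in nCas9, ABEmax and miniABEmax-V82G cells, and was not called in Target-AID or SpACE cells. In ABEmax cells RNF2 had 42.15, 36.2 and 35.3 CPM with the RNF2 guide, against 73.8, 64.9 and 67.0 CPM with the HEKsite2 guide. In miniABEmax-V82G cells it had 46.3, 46.2 and 51.0 CPM with the RNF2 guide, against 66.8, 68.6 and 66.4 CPM with the HEKsite2 guide. In nCas9 cells it had 34.6, 42.0 and 33.2 CPM with the RNF2 guide, against 68.0, 63.5 and 60.8 CPM with the HEKsite2 guide. In each of these 3 constructs every RNF2-guide library lay below every HEKsite2-guide library by a wide margin. In SpACE cells RNF2 had 64.4, 62.1 and 60.5 CPM with the RNF2 guide, against 72.1, 68.7 and 74.9 CPM with the HEKsite2 guide. In Target-AID cells it had 69.8, 70.3 and 61.8 CPM with the RNF2 guide, against 75.5, 69.2 and 69.5 CPM with the HEKsite2 guide. The SpACE groups stood close together without overlapping, and the Target-AID groups overlapped. GFP cells, which had no guide, had 73.1, 76.5 and 87.2 CPM, the highest group.

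**Figure D1:**
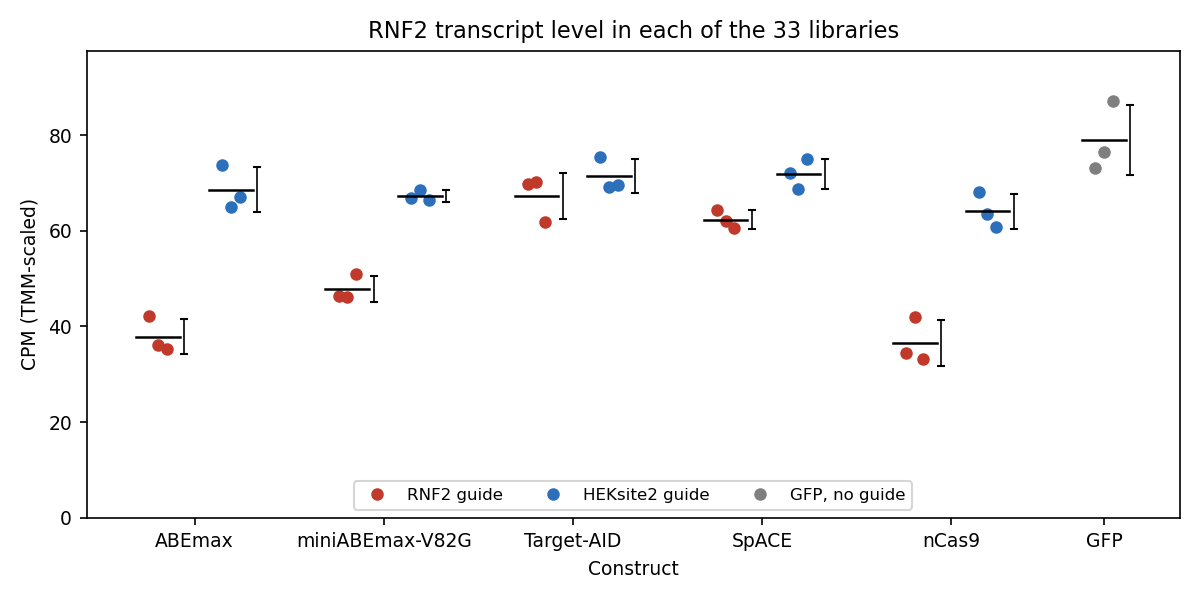
RNF2 level in CPM (y axis) in each of the 33 libraries, by construct (x axis) and guide, with points for libraries, lines for group means and bars for the SD. The RNF2-guide groups of ABEmax (mean 37.9 CPM), miniABEmax-V82G (47.85 CPM) and nCas9 (36.6 CPM) lie below all the remaining groups, with those of ABEmax and nCas9 overlapping each other. The RNF2-guide groups of SpACE (62.35 CPM) and Target-AID (67.3 CPM) lie near the HEKsite2-guide groups.

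Ordered by mean level of RNF2, the 11 groups began with nCas9 and the RNF2 guide at 36.6 ± 4.765 CPM (SD, n = 3, as for the group means that follow), followed by ABEmax with the RNF2 guide at 37.9 ± 3.71 CPM. Then came miniABEmax-V82G with the RNF2 guide at 47.85 ± 2.73 CPM and SpACE with the RNF2 guide at 62.35 ± 1.975 CPM. The remaining groups were nCas9 with HEKsite2 (64.1 ± 3.64 CPM), miniABEmax-V82G with HEKsite2 (67.3 ± 1.195 CPM), Target-AID with the RNF2 guide (67.3 ± 4.78 CPM), ABEmax with HEKsite2 (68.6 ± 4.64 CPM), Target-AID with HEKsite2 (71.4 ± 3.52 CPM), SpACE with HEKsite2 (71.9 ± 3.12 CPM) and GFP (78.9 ± 7.34 CPM). Neighbours in this order did not overlap only between ABEmax and miniABEmax-V82G with the RNF2 guide, and between miniABEmax-V82G and SpACE with the RNF2 guide.

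The guide contrast asks how the targeted gene and its partners differed between the RNF2 and HEKsite2 guides within a construct. In ABEmax cells the log2 fold change of RNF2 was -0.85 ± 0.083 (SE, edgeR quasi-likelihood adjusted p = 2.13e-09), that is 55.3% of the HEKsite2-guide level (95% interval 49.3 to 62.1). In miniABEmax-V82G cells it was -0.49 ± 0.0788 (adjusted p = 0.000132), or 71.2% (63.7 to 79.5), a smaller reduction. In nCas9 cells it was -0.81 ± 0.0828 (adjusted p = 1.88e-08), or 57.1% (50.8 to 64.1). RNF2 thus fell in ABEmax, in miniABEmax-V82G and in the nickase without a deaminase. In SpACE cells the log2 fold change was -0.20 ± 0.0752, with an interval of -0.36 to -0.05, an unadjusted p of 0.00962 and an adjusted p of 0.586. In Target-AID cells it was -0.09 ± 0.0741 with an interval of -0.24 to 0.06 and an adjusted p of 1, so a small reduction remains within the interval. Averaged over the 5 constructs it was -0.49 ± 0.0353 (adjusted p = 2.9e-13). When each library was left out in turn, the called values ranged from -0.94 to -0.80 in ABEmax, from -0.54 to -0.47 in miniABEmax-V82G and from -0.92 to -0.75 in nCas9, and all stayed below the threshold.

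RNF2 had the smallest p of the 10 genes in ABEmax, miniABEmax-V82G and nCas9 cells. In ABEmax cells 2 of the 10 were called (RNF2 lower, CBX2 higher), against 2.26% of all genes tested. In miniABEmax-V82G cells RNF2 alone was called, 1 of the 10, against 9.94% of all genes, and in nCas9 cells RNF2 alone, 1 of the 10, against 2.07%. In SpACE cells edgeR called 0 of the 10, against 0.0411% of all genes, with 1 of the 10 (RNF2) at an unadjusted p below 0.05 and 0 by DESeq2. In Target-AID cells edgeR called 0 of the 10 and 0 of all genes (0%), with 1 of the 10 (RING1) and 572 of all genes at an unadjusted p below 0.05 and 0 of either by DESeq2. Averaged over the 5 constructs, 4 of the 10 were called, against 15.2% of all genes. Among all genes tested, ranked by p, RNF2 stood at position 5 in ABEmax, 26 in miniABEmax-V82G, 237 in SpACE, 3444 in Target-AID and 3 in nCas9.

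**Figure D2:**
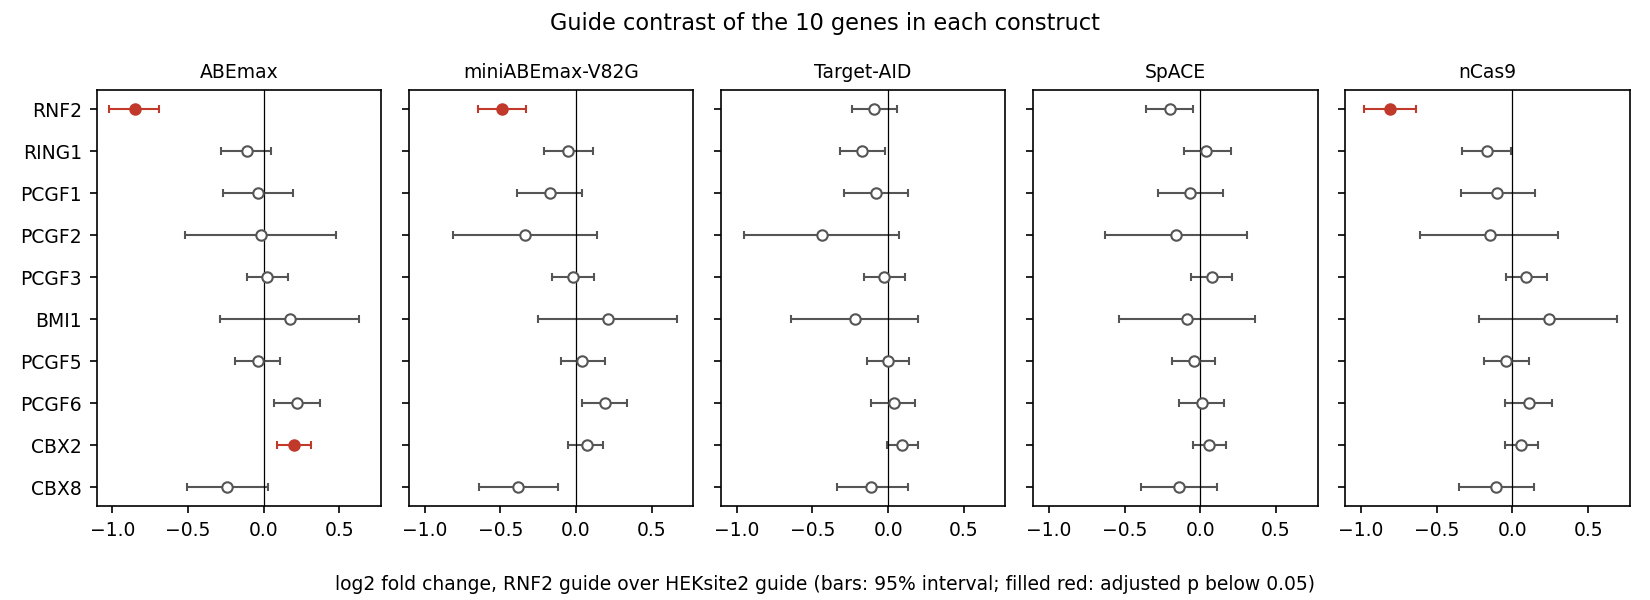
Log2 fold change of the RNF2 guide over the HEKsite2 guide (x axis) for the 10 genes (rows) in each construct (panels), with 95% intervals as bars and filled red points for an adjusted p below 0.05. RNF2 stands at -0.85 in ABEmax, -0.49 in miniABEmax-V82G, -0.09 in Target-AID, -0.20 in SpACE and -0.81 in nCas9, while most other genes straddle 0.

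Whether the guide contrast of RNF2 differed between an editor and nCas9 was tested with an interaction term. The guide contrast in Target-AID cells was higher than that in nCas9 cells by 0.72 ± 0.111 on the log2 scale (adjusted p = 0.000459), and that in SpACE cells by 0.60 ± 0.112 (adjusted p = 0.0122). In miniABEmax-V82G cells the difference was 0.32 ± 0.115 (unadjusted p = 0.00822, adjusted p = 0.729), and in ABEmax cells -0.04 ± 0.118 (adjusted p = 1). In the interaction tests 1 of the 10 genes was called for Target-AID, against 0.164% of all genes, and 1 for SpACE, against 0.0274%, both times RNF2. For miniABEmax-V82G edgeR called 0 of the 10, against 0.0137% of all genes, with 1 of the 10 (RNF2) at an unadjusted p below 0.05 and 0 by DESeq2. For ABEmax edgeR called 0 of the 10 and 0 of all genes (0%), with 0 of the 10 and 596 of all genes at an unadjusted p below 0.05 and 0 of either by DESeq2. The Target-AID difference ranged from 0.66 to 0.83 when each library was left out, with adjusted p up to 0.00812. The SpACE difference ranged from 0.54 to 0.71 and lost the call (adjusted p up to 0.118) without SpACE replicate 1 or nCas9 replicate 1 or 3 with the RNF2 guide, or without SpACE replicate 2 or nCas9 replicate 1 with the HEKsite2 guide. The 4 interaction tests share the nCas9 libraries.

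The partners moved little with the guide. RING1, the paralog that can take the place of RNF2 in the core, had a log2 fold change of -0.11 ± 0.0812 in ABEmax, -0.05 ± 0.0796 in miniABEmax-V82G, -0.17 ± 0.0751 in Target-AID, 0.04 ± 0.0769 in SpACE and -0.17 ± 0.0788 in nCas9, none of them called. RING1 had 35.7, 36.4 and 33.6 CPM in nCas9 cells with the RNF2 guide, against 40.3, 37.0 and 41.2 CPM with the HEKsite2 guide. No construct thus had a called rise of RING1 where RNF2 was reduced.

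CBX2, a chromodomain reader, was slightly higher with the RNF2 guide in ABEmax cells, with 93.2, 90.6 and 99.7 CPM, against 86.2, 80.0 and 81.0 CPM with the HEKsite2 guide. The 3 RNF2-guide libraries all lay above the 3 HEKsite2-guide libraries, and the log2 fold change was 0.20 ± 0.0554 (adjusted p = 0.0437). That call was lost without any one of the 6 libraries (adjusted p 0.0501 to 0.224), by DESeq2, without the filter, and when these groups alone were fitted. PCGF6, the core partner of the E2F6- and MGA-containing variant complex, had 81.0, 77.5 and 70.8 CPM in ABEmax cells with the RNF2 guide, against 69.3, 66.5 and 60.8 CPM with HEKsite2. It had 71.3, 79.8 and 75.0 CPM in miniABEmax-V82G cells with the RNF2 guide, against 67.6, 66.0 and 64.9 CPM with HEKsite2. The groups did not overlap in either construct, but the differences of 0.22 (adjusted p = 0.104) and 0.19 (adjusted p = 0.0854) were not called. CBX8, a chromodomain reader with a strong repressive activity, had 10.25, 10.3 and 10.4 CPM in miniABEmax-V82G cells with the RNF2 guide, against 13.5, 13.8 and 13.1 CPM with HEKsite2. These groups did not overlap, and the log2 fold change of -0.38 ± 0.128 had an adjusted p of 0.0506.

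Averaged over the 5 constructs, PCGF6 was higher by 0.11 ± 0.0328 (adjusted p = 0.0154) and CBX2 by 0.10 ± 0.0243 (adjusted p = 0.00542) with the RNF2 guide, and CBX8 was lower by a log2 fold change of -0.19 ± 0.0559 (adjusted p = 0.0145). All 3 averages lost the call without the replicate 2 libraries or without the replicate 3 libraries, with adjusted p up to 0.185 for PCGF6, 0.144 for CBX2 and 0.244 for CBX8. PCGF1 (-0.09), PCGF2 (-0.22), PCGF3 (0.03), PCGF5 (-0.02), BMI1 (0.06) and RING1 (-0.09, adjusted p = 0.0737) were not called.

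The comparison of each editor with nCas9 under the same guide asks how the complex differed with the deaminase constructs. All comparisons under one guide share the same 3 nCas9 libraries, so they are not independent of each other. With the HEKsite2 guide 2 of the 10 genes were called in ABEmax (15.9% of all genes), 3 in miniABEmax-V82G (10.3%), 3 in Target-AID (40.6%) and 3 in SpACE (21%). Under the RNF2 guide 4 of the 10 were called in ABEmax (11.2% of all genes), 5 in miniABEmax-V82G (12.6%), 5 in Target-AID (35.2%) and 4 in SpACE (14.7%). PCGF1 was higher and CBX2 lower in all 8 comparisons, and PCGF5 was higher in 6 of the 8.

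RNF2 itself did not differ from nCas9 with the HEKsite2 guide beyond the threshold, at log2 fold changes of 0.10 in ABEmax, 0.07 in miniABEmax-V82G, 0.16 in Target-AID and 0.16 in SpACE. Under the RNF2 guide it was higher than in nCas9 in miniABEmax-V82G (0.39, adjusted p = 0.0021), Target-AID (0.88, adjusted p = 1.95e-11) and SpACE (0.77, adjusted p = 6.5e-09), and was not called in ABEmax (0.05, adjusted p = 0.771). Against GFP all 8 log2 fold changes of RNF2 were negative, between -1.06 and -0.13.

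PCGF1, which anchors the KDM2B- and BCOR-containing variant complex, was higher with every editor. Under the RNF2 guide it had 15.6, 17.5 and 15.5 CPM in ABEmax, 15.8, 14.9 and 18.7 CPM in miniABEmax-V82G, 15.4, 15.7 and 18.9 CPM in Target-AID and 16.6, 14.6 and 17.2 CPM in SpACE, against 12.99, 11.5 and 12.7 CPM in nCas9. With the HEKsite2 guide it had 17.4, 17.6 and 15.1 CPM in ABEmax, 17.8, 20.9 and 17.02 CPM in miniABEmax-V82G, 17.4, 17.9 and 17.4 CPM in Target-AID and 17.6, 15.8 and 17.3 CPM in SpACE, against 13.5, 14.9 and 11.7 CPM in nCas9. Every editor library lay above every nCas9 library with the same guide. GFP cells had 11.9, 11.8 and 12.1 CPM, near the nCas9 libraries. The log2 fold changes over nCas9 with the RNF2 guide were 0.39 in ABEmax (adjusted p = 0.0244), 0.41 in miniABEmax-V82G (0.0151), 0.42 in Target-AID (0.00309) and 0.38 in SpACE (0.0194). With the HEKsite2 guide they were 0.33 in ABEmax (0.049), 0.49 in miniABEmax-V82G (0.00278), 0.41 in Target-AID (0.00325) and 0.35 in SpACE (0.023). Standard errors ran from 0.111 to 0.117. Against GFP the log2 fold changes of the 8 editor groups were 0.44 to 0.64, with adjusted p from 7.88e-06 to 0.00182. The calls against nCas9 held without any one library in both Target-AID comparisons and in miniABEmax-V82G with HEKsite2. With HEKsite2 the ABEmax call was lost without ABEmax replicate 1 or 2 or nCas9 replicate 1 or 3 (adjusted p up to 0.229), and the SpACE call without SpACE replicate 1 or 3 or nCas9 replicate 1 or 3 (up to 0.153). With the RNF2 guide the ABEmax call was lost without ABEmax replicate 2 or nCas9 replicate 2 (up to 0.128), the miniABEmax-V82G call without its replicate 3 or nCas9 replicate 2 (up to 0.124), and the SpACE call without its replicate 1 or 3 or nCas9 replicate 2 (up to 0.0937). DESeq2 did not call PCGF1 in ABEmax under either guide or in SpACE with HEKsite2.

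**Figure D3:**
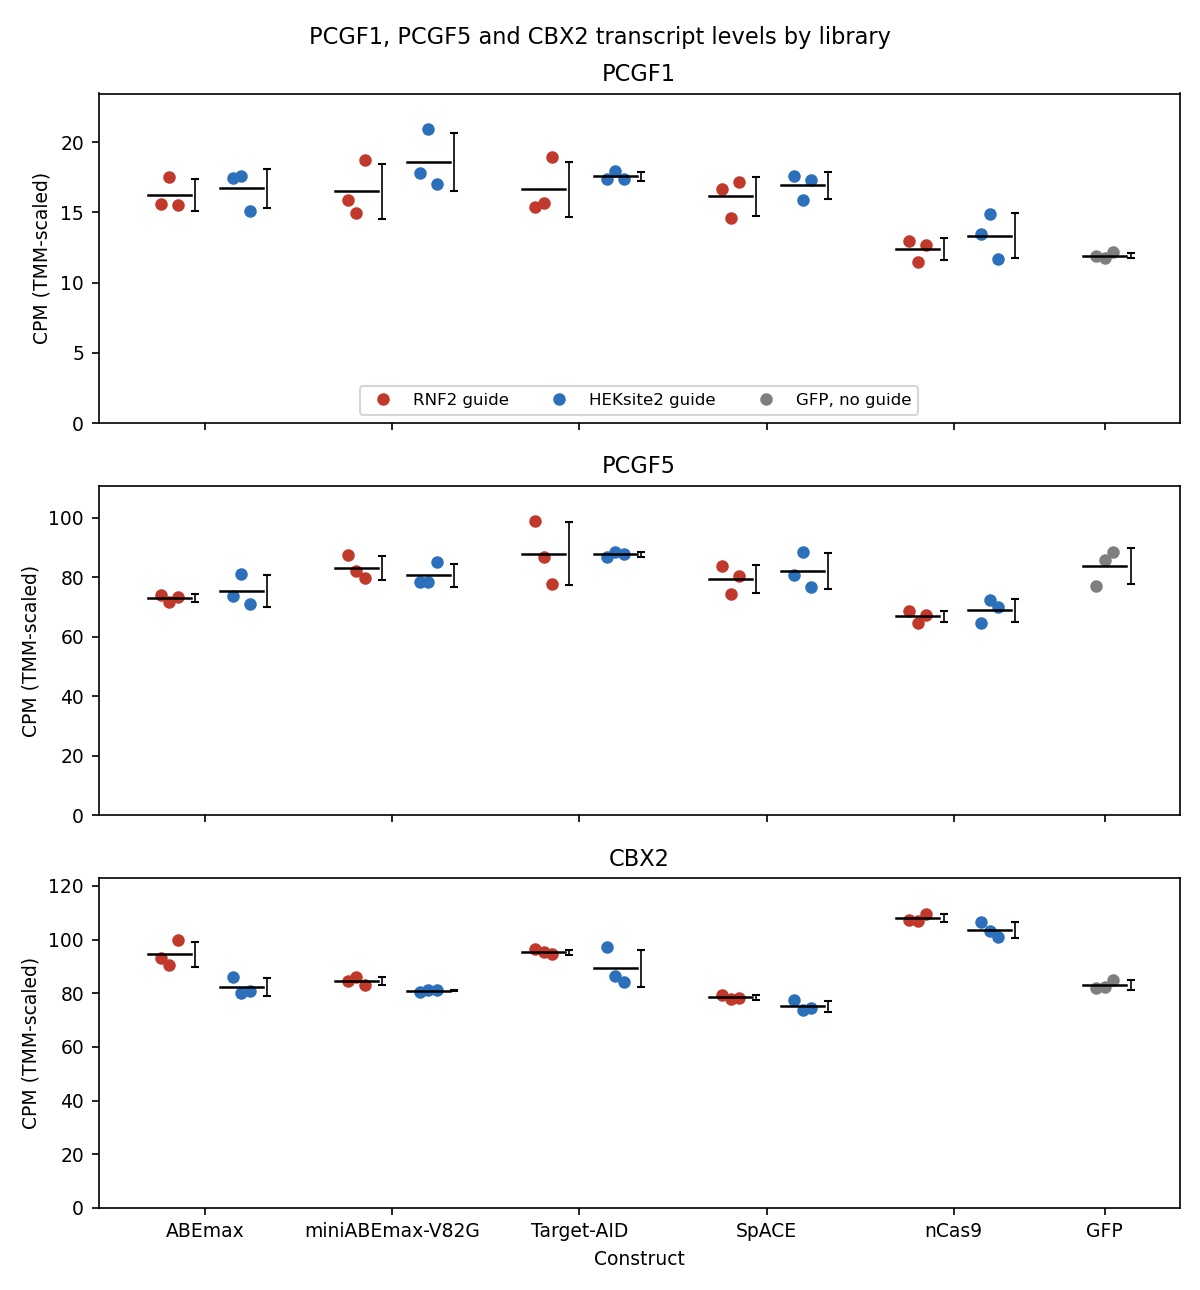
Levels of PCGF1, PCGF5 and CBX2 in CPM (y axes, 1 panel a gene) in each library, by construct (x axis) and guide, with lines for group means and bars for the SD. PCGF1 lies between 14.6 and 20.9 CPM in editor libraries and at most at 14.9 CPM in nCas9 libraries, and CBX2 lies at 100.9 CPM or more in nCas9 libraries and below that in all editor and GFP libraries.

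CBX2 was lower with every editor than with nCas9, and nCas9 was also higher than GFP. CBX2 with the RNF2 guide had 93.2, 90.6 and 99.7 CPM in ABEmax, 84.7, 86.2 and 83.2 CPM in miniABEmax-V82G, 96.3, 95.2 and 94.5 CPM in Target-AID and 79.5, 77.7 and 78.4 CPM in SpACE, against 107, 107 and 109.7 CPM in nCas9. With the HEKsite2 guide it had 86.2, 80.0 and 81.0 CPM in ABEmax, 80.6, 81.1 and 81.1 CPM in miniABEmax-V82G, 97.2, 86.6 and 84.2 CPM in Target-AID and 77.4, 73.7 and 74.3 CPM in SpACE, against 107, 103 and 101 CPM in nCas9. No editor library reached the lowest nCas9 library, and GFP cells, at 81.9, 82.3 and 85.1 CPM, lay among the editors. The log2 fold changes over nCas9 with the RNF2 guide were -0.19 in ABEmax (adjusted p = 0.014), -0.35 in miniABEmax-V82G (2.59e-05), -0.18 in Target-AID (0.00684) and -0.46 in SpACE (4.87e-08). With the HEKsite2 guide they were -0.33 in ABEmax (3.37e-05), -0.36 in miniABEmax-V82G (1.4e-05), -0.21 in Target-AID (0.0013) and -0.46 in SpACE (3.42e-08). Standard errors ran from 0.0528 to 0.0551. Only the ABEmax call with the RNF2 guide was lost in the leave-one-out fits, without ABEmax replicate 1 or 2 (adjusted p up to 0.0864). That call was also lost without the filter on low counts (0.0865), and the CBX2 call in Target-AID with the RNF2 guide was lost without the filter and with only the compared groups fitted (up to 0.052). Against GFP the same 8 groups ran from -0.14 to 0.20. CBX2 was called higher than in GFP in 2 of them, ABEmax (0.19) and Target-AID (0.20) with the RNF2 guide. It was called lower in 1, SpACE with HEKsite2 (-0.14), and was not called in the others. The lower level in all 8 groups thus held against nCas9 and not against GFP.

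PCGF5, the core partner of a variant complex with AUTS2, was higher than in nCas9 with miniABEmax-V82G, Target-AID and SpACE. PCGF5 with the RNF2 guide had 87.4, 81.99 and 79.7 CPM in miniABEmax-V82G, 98.85, 87.0 and 77.8 CPM in Target-AID and 83.7, 74.5 and 80.4 CPM in SpACE, against 68.5, 64.7 and 67.4 CPM in nCas9. With HEKsite2 it had 78.5, 78.3 and 85.2 CPM in miniABEmax-V82G, 86.9, 88.5 and 88.0 CPM in Target-AID and 80.6, 88.6 and 76.7 CPM in SpACE, against 64.8, 72.3 and 69.9 CPM in nCas9. All libraries of these 3 editors lay above those of nCas9, while GFP cells (77.0, 85.7 and 88.5 CPM) lay at the level of the editors. The log2 fold changes with the RNF2 guide were 0.31 in miniABEmax-V82G (adjusted p = 0.004), 0.39 in Target-AID (3.54e-05) and 0.25 in SpACE (0.0156), and with HEKsite2 0.23 (0.0382), 0.35 (0.000141) and 0.25 (0.011) in the same order. In ABEmax it was 0.13 under either guide (adjusted p = 0.288 with the RNF2 guide and 0.268 with HEKsite2). The call in miniABEmax-V82G with HEKsite2 was lost without its replicate 1 or 3 or nCas9 replicate 1 or 3 (adjusted p up to 0.179). The SpACE calls were lost without SpACE replicate 2 or nCas9 replicate 1 with HEKsite2 (up to 0.1) and without SpACE replicate 1 or nCas9 replicate 2 with the RNF2 guide (up to 0.0918). Against GFP the 8 editor groups ran from -0.20 to 0.07.

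CBX8 was lower than in nCas9 with the RNF2 guide in ABEmax (11.6, 10.0 and 9.89 CPM) and miniABEmax-V82G (10.25, 10.3 and 10.4 CPM), against 14.7, 12.6 and 14.6 CPM in nCas9. Neither editor group overlapped nCas9, at log2 fold changes of -0.41 (adjusted p = 0.0316) and -0.43 (adjusted p = 0.0216). The ABEmax call was lost without ABEmax replicate 2 or 3 or nCas9 replicate 1 or 3 (adjusted p up to 0.115) and by DESeq2, and the miniABEmax-V82G call without any of its own 3 replicates or nCas9 replicate 1 or 3 (up to 0.0846). In the other 6 comparisons CBX8 was not called, at -0.29 to -0.02.

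PCGF6 was higher than in nCas9 in ABEmax with the RNF2 guide, with 81.0, 77.5 and 70.8 CPM, against 65.9, 66.5 and 64.05 CPM. The log2 fold change of 0.22 ± 0.0733 (adjusted p = 0.0409) lost the call without any one of the nCas9 libraries or ABEmax replicate 1 or 2 (adjusted p up to 0.18) and under upper quartile scaling. Against GFP, at 56.7, 59.8 and 49.9 CPM, PCGF6 was higher in the 8 editor groups by 0.24 to 0.46 (adjusted p 1.62e-06 to 0.00894). PCGF2 was lower in Target-AID with the RNF2 guide, with 2.99, 3.28 and 2.04 CPM, against 4.17, 5.36 and 4.87 CPM in nCas9, at a log2 fold change of -0.79 ± 0.247 (adjusted p = 0.0117). It lost the call without Target-AID replicate 3 or nCas9 replicate 2 (adjusted p up to 0.064), and its level of a few CPM makes it one of the least precisely measured of the 10. RING1 (log2 fold changes from -0.19 to 0.09, adjusted p of at least 0.112), BMI1 (-0.31 to 0.30, at least 0.287) and PCGF3 (-0.08 to 0.12, at least 0.141) were not called in the 8 comparisons with nCas9 by edgeR.

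**Figure D4:**
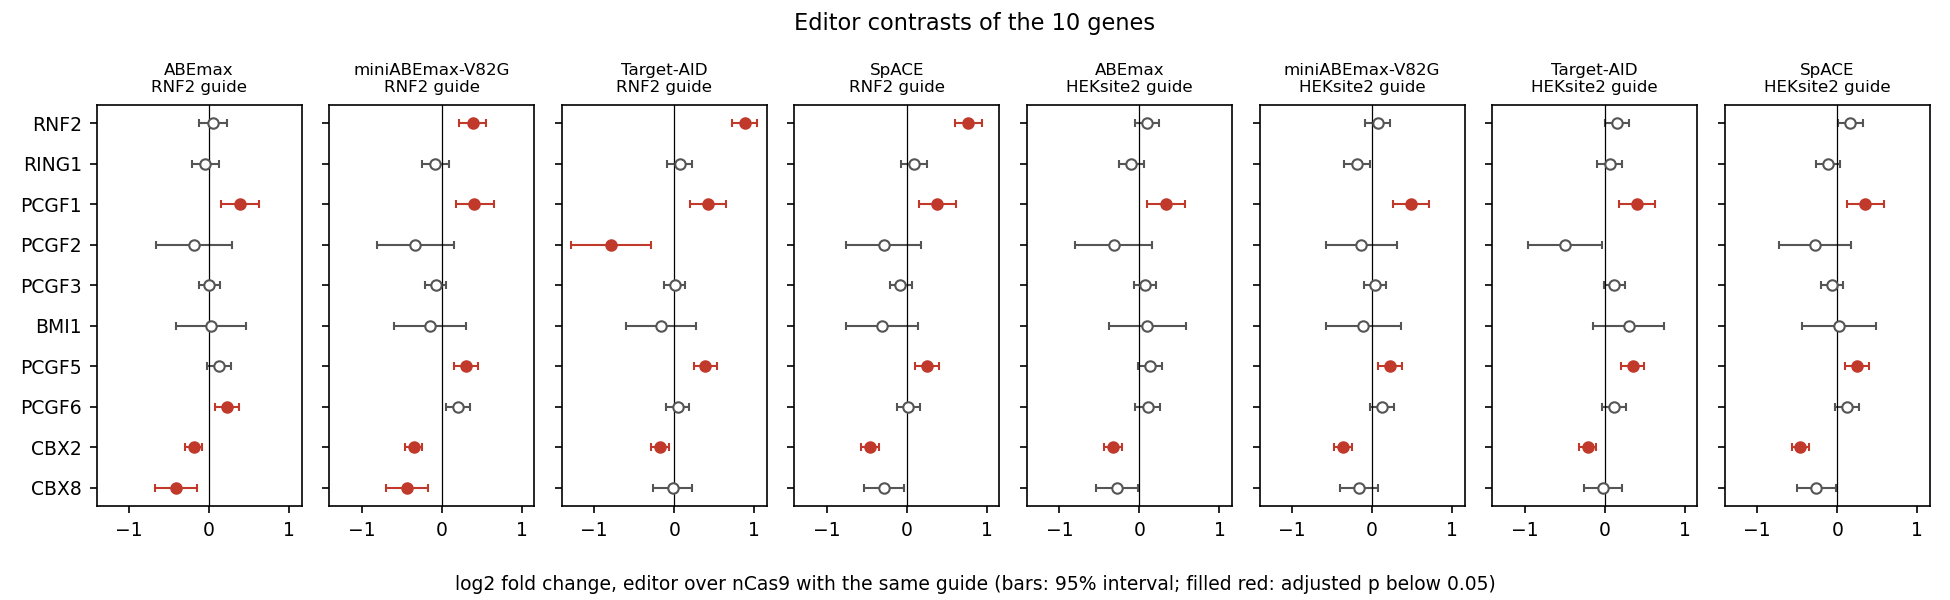
Log2 fold change of each editor over nCas9 (x axis) for the 10 genes (rows), by editor and guide, with 95% intervals as bars and filled points for an adjusted p below 0.05. PCGF1 is to the right of 0 (0.33 to 0.49) and CBX2 to the left (-0.46 to -0.18) in all 8 comparisons, while RNF2 reaches 0.88 with the RNF2 guide and at most 0.16 with HEKsite2.

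The 2 negative controls differed from each other. With the RNF2 guide, nCas9 differed from GFP at 5 of the 10 genes (41.5% of all genes), and with the HEKsite2 guide at 5 of the 10 (38.4% of all genes). RNF2 was lower in nCas9 by a log2 fold change of -1.11 ± 0.0799 with the RNF2 guide (adjusted p = 4.62e-14), 46.4% of the GFP level, and of -0.30 ± 0.0748 with HEKsite2 (adjusted p = 0.00149), 81.4% of it. RING1 was higher by 0.21 (adjusted p = 0.0307) with the RNF2 guide and by 0.38 (0.000174) with HEKsite2, and the GFP libraries, at 30.1, 30.6 and 30.8 CPM, lay below all 30 others. CBX2 was higher in nCas9 by 0.38 (2.68e-07) and 0.32 (7.45e-06), and PCGF5 was lower, at -0.32 (0.000357) and -0.28 (0.00191), with the RNF2 and HEKsite2 guides in that order. PCGF6 was higher by 0.24 with the RNF2 guide (adjusted p = 0.0091) and not called with HEKsite2 (0.13, 0.172). BMI1 was lower with HEKsite2 (3.52, 4.77 and 3.65 CPM in nCas9, against 6.78, 5.64 and 5.08 CPM in GFP), at -0.57 ± 0.209 (adjusted p = 0.0289), and not called with the RNF2 guide (-0.33, 0.194). The RING1 call with the RNF2 guide was lost without any GFP library or nCas9 replicate 1 or 2 (adjusted p up to 0.104), the PCGF6 call without GFP replicate 3 (0.0944), and the BMI1 call without GFP replicate 1 or nCas9 replicate 1 or 3 (up to 0.141). That RING1 call was also lost by DESeq2 and without the filter on low counts (up to 0.129), and the BMI1 call by DESeq2. Beside these differences, summed HEK293 markers stood at 525 to 571 CPM in nCas9 libraries and 595 to 674 CPM in GFP libraries, and summed fibroblast markers at 12.5 to 18.7 CPM in nCas9 libraries and 20.5 to 27.3 CPM in GFP libraries. The part of these markers in the result was not tested. The GFP group has neither the nickase nor a guide, and no guide plasmid is listed for it, so that its total plasmid amount was also lower. These differences cannot be told apart here, in nCas9 or in the editors against GFP.

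Other genes of the Polycomb system were taken from 5 lists. They held 9 further canonical PRC1 partners, 23 variant PRC1 partners, 13 PRC2 subunits, 12 genes of H2A deubiquitination and 39 HOX genes, of which 35 were tested. In the guide contrast most of them were not called, and CSNK2A1, SUZ12 and PHF1 were called in 3 or more constructs. CSNK2A1, the catalytic subunit of casein kinase 2 found in the PCGF5 complex, had 115, 107 and 106 CPM in ABEmax with the RNF2 guide, against 165, 150 and 152 CPM with HEKsite2. In nCas9 it had 125, 122 and 114 CPM with the RNF2 guide, against 174, 164 and 161 CPM with HEKsite2. In Target-AID it had 151, 154 and 150 CPM with the RNF2 guide, against 163, 152 and 153 CPM with HEKsite2. The guides were far apart in ABEmax and nCas9 and overlapped in Target-AID. CSNK2A1 fell by 0.51 ± 0.0549 on the log2 scale in ABEmax (adjusted p = 3.32e-08), 0.43 ± 0.0543 in miniABEmax-V82G (3.11e-06), 0.27 ± 0.0531 in SpACE (0.0238) and 0.47 ± 0.054 in nCas9 (3.13e-07). The SpACE call was lost without SpACE replicate 2 or 3 with the RNF2 guide or any HEKsite2-guide SpACE library (adjusted p up to 0.33). Its guide contrast in Target-AID was higher than that in nCas9 by 0.43 ± 0.0753 (adjusted p = 0.00322, interaction term).

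SUZ12, a core subunit of PRC2, had 80.3, 78.6 and 81.6 CPM in ABEmax with the RNF2 guide, against 98.7, 121 and 114 CPM with HEKsite2. In nCas9 it had 75.5, 80.2 and 65.8 CPM with the RNF2 guide, against 104, 115 and 120 CPM with HEKsite2. In Target-AID it had 134, 126 and 113 CPM with the RNF2 guide, against 135, 148 and 134 CPM with HEKsite2. The guides were wide apart in ABEmax and nCas9 and adjacent, without overlap, in Target-AID. SUZ12 fell by 0.47 ± 0.0782 in ABEmax (adjusted p = 0.000126), 0.42 ± 0.0765 in miniABEmax-V82G (0.00072) and 0.62 ± 0.078 in nCas9 (2.08e-06) on the log2 scale, and kept these calls in every leave-one-out fit. The interaction terms of SUZ12 were 0.45 for Target-AID (adjusted p = 0.064) and 0.43 for SpACE (adjusted p = 0.224), which edgeR did not call, while DESeq2 called 1 of the 13 PRC2 subunits in the Target-AID interaction. PHF1, a PRC2 accessory subunit that binds H3K36me3, fell by 0.49 ± 0.102 in ABEmax (0.00317), 0.34 ± 0.0969 in miniABEmax-V82G (0.0226) and 0.41 ± 0.104 in nCas9 (0.0248). The miniABEmax-V82G call of PHF1 was lost without replicate 1 or 3 of either guide (adjusted p up to 0.132), and the nCas9 call without replicate 1 or 2 with the RNF2 guide or 1 or 3 with HEKsite2 (up to 0.114), and both by DESeq2. CSNK2A1 has a near-identical copy, CSNK2A3, and SUZ12 a pseudogene, SUZ12P1, and the counting could have split reads between them, so the counts of both genes are uncertain to that extent.

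**Figure D5:**
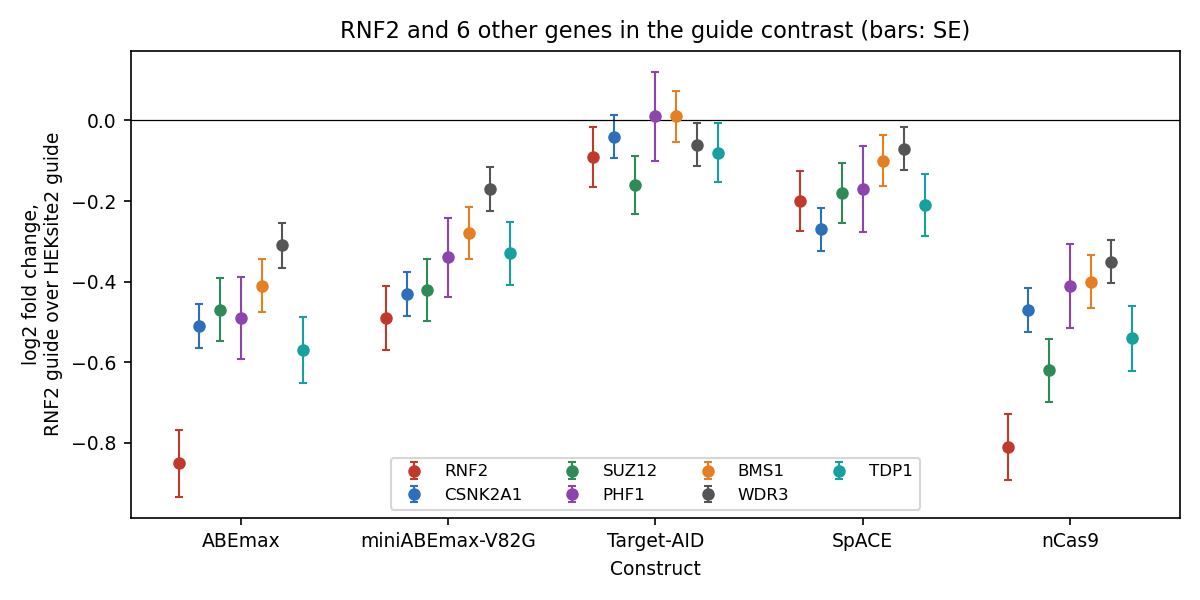
Log2 fold change of the RNF2 guide over the HEKsite2 guide (y axis) for RNF2, CSNK2A1, SUZ12, PHF1, BMS1, WDR3 and TDP1 in each construct (x axis), with bars for the SE. All 7 genes lie below 0 in ABEmax, miniABEmax-V82G and nCas9, and in Target-AID they lie within -0.16 and 0.01. BMS1, WDR3 and TDP1 were picked for likeness to RNF2 over these groups, and CSNK2A1, SUZ12 and PHF1 for their calls in this contrast. Their shared pattern follows from that choice.

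By list, the guide contrast called 0 of 9 canonical partners, 1 of 23 variant partners (CSNK2A1), 2 of 13 PRC2 subunits (SUZ12 and PHF1), 1 of 12 deubiquitination genes and 0 of 35 HOX genes in ABEmax, against 2.26% of all genes, where edgeR had 2 canonical partners and 2 HOX genes at an unadjusted p below 0.05 and DESeq2 called 0 of both. The deubiquitination gene was FOXK2, at 0.20 ± 0.0583 (adjusted p = 0.0498), a call lost without any one of the 6 libraries (adjusted p up to 0.25). In nCas9 it called 0, 1, 2, 0 and 0 of the same lists, against 2.07% of all genes, with 3 canonical partners, 3 deubiquitination genes and 2 HOX genes at an unadjusted p below 0.05 by edgeR and 0 by DESeq2. In miniABEmax-V82G cells 9.94% of all genes were called. The list calls were 1 canonical partner (CBX6, 0.29), 6 variant partners and 2 PRC2 subunits. Of the variant partners 5 were higher, among them FBRSL1 at 0.56, WDR5 at 0.20 and KDM2B at 0.19. The 4 called deubiquitination genes were all higher (FOXK1 0.43, HCFC1 0.38, ASXL1 0.23 and FOXK2 0.21). Of 35 HOX genes 2 were called (5.71%), both lower, among them HOXC11 (-0.65). Of the genes named for miniABEmax-V82G, CBX6, WDR5, KDM2B, ASXL1, FOXK2 and HOXC11 all lost the call without miniABEmax-V82G replicate 2 with HEKsite2, and each also without 1 or more of the other 5 libraries, with adjusted p of at most 0.154. SpACE, where 0.0411% of all genes were called, called CSNK2A1 alone, with 1 gene of each of the other 4 lists at an unadjusted p below 0.05 by edgeR and 0 by DESeq2, and Target-AID called 0 genes of any list by edgeR and by DESeq2, with 1 PRC2 subunit and 2 HOX genes at an unadjusted p below 0.05. The median log2 fold change of the deubiquitination list was 0.22 in miniABEmax-V82G, 0.15 in ABEmax and 0.11 in nCas9, and 0 in Target-AID and SpACE, against 0 for all genes tested. The medians of the HOX list lay between -0.04 and 0.02 in all 5 constructs.

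Against nCas9 under the same guide, PHC2, a Polyhomeotic subunit of canonical PRC1, was higher in all 8 comparisons. It had 85.8, 83.3 and 85.2 CPM in ABEmax, 88.5, 85.6 and 87.6 CPM in miniABEmax-V82G, 104, 106 and 106 CPM in Target-AID and 96.1, 91.1 and 105 CPM in SpACE with the RNF2 guide, against 69.5, 64.6 and 79.3 CPM in nCas9. The log2 fold changes were 0.25 to 0.68 against nCas9 (adjusted p 3.05e-10 to 0.0152) and 0.40 to 0.79 against GFP. With the RNF2 guide the ABEmax call was lost without nCas9 replicate 1 or 2 (adjusted p up to 0.15) and the miniABEmax-V82G call without nCas9 replicate 2 (0.0659). Among the other canonical partners SCMH1 was higher in 5 of the 8, PHC3 and the chromodomain gene CBX7 in 4 each, SCML2 was lower in 5 and SCML1 in 3, and CBX6 was higher in 2 and lower in 1. With GFP as the control, the 8 editor groups ran from -0.01 to 0.31 for SCMH1 and 0.43 to 0.83 for PHC3. They ran from -0.45 to 0.82 for CBX7, -0.28 to 0.03 for SCML2 and 0.04 to 0.42 for SCML1. Of the variant partners USP7, a deubiquitinase, was higher in 6 (log2 fold changes over all 8 of 0.09 to 0.32), KDM2B in 4, AUTS2, E2F6 and RYBP in 3 each, and YAF2 and CSNK2A1 in 1 each. SKP1 was lower in 6 (-0.48 to -0.09), MAX and HDAC1 in 4 each, and CSNK2A2 was lower in 2 and higher in 1. Measured from GFP, the 8 editor groups ran from -0.12 to 0.11 for USP7, on both sides of 0, and from 0.06 to 0.27 for KDM2B. They ran from -0.58 to -0.24 for SKP1, -0.34 to 0.05 for MAX and -0.46 to -0.26 for HDAC1. The USP7 calls with the RNF2 guide were lost without ABEmax replicate 1 or 3 or nCas9 replicate 2 or 3 in ABEmax (adjusted p up to 0.186), and without any of its own libraries or nCas9 replicate 2 or 3 in miniABEmax-V82G (up to 0.2). The SKP1 calls in miniABEmax-V82G were lost under either guide without any of its own libraries or nCas9 replicate 1 or 2 (up to 0.197).

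In PRC2, EPOP, listed as C17orf96, was lower in 7 of the 8 comparisons (-0.60 to -0.23), the histone-binding subunit RBBP7 in 6 (-0.46 to -0.11), PHF19 in 4 and RBBP4 in 2, and PHF1 was lower in 2 and higher in 1 (-0.68 to 0.31). SUZ12 was higher in 3 and the catalytic subunit EZH1 in 2, while EZH2, the main methyltransferase, was higher in 2 and lower in 1. ASXL1, the BAP1 cofactor, was higher in 6 (0.15 to 0.44), and OGT in 2. With GFP as the control, the 8 editor groups ran from -0.24 to 0.13 for EPOP and -0.45 to -0.22 for RBBP7. They ran from 0.10 to 0.41 for PHF19, 0.32 to 0.78 for EZH2 and -0.71 to 0.09 for SUZ12. For ASXL1 the range was -0.06 to 0.22. The direction for EPOP, PHF19 and ASXL1 thus depended, in some or all groups, on which control was used. HOX genes are the classical Polycomb targets. HOXB13 (-0.96 to -0.47) and HOXC9 (-1 to -0.29) were lower in all 8, HOXC10 in 6, HOXB7 in 5 and HOXC6 in 3, and HOXB3 was higher in 2. Of the 35 HOX genes, 0 were called higher and 4 lower in ABEmax, 0 and 7 in miniABEmax-V82G, 4 and 6 in Target-AID and 0 and 6 in SpACE with the RNF2 guide, and 0 and 5, 0 and 5, 5 and 10, and 1 and 8 with HEKsite2. The median of the HOX list ran from -0.19 to -0.08 over the 8 comparisons, against -0.01 to 0 for all genes. Against GFP the range of HOXB13 was -0.24 to 0.26 and that of HOXC9 -0.40 to 0.06, and nCas9 with HEKsite2 was itself higher than GFP for HOXB13 (0.63) and HOXC9 (0.60). Single libraries decided the calls of HOXC9 in ABEmax with the RNF2 guide (lost without nCas9 replicate 1, adjusted p = 0.0663), of EPOP in ABEmax with HEKsite2 (lost without ABEmax replicate 2, 0.083), of RBBP7 in miniABEmax-V82G with HEKsite2 (lost without its replicate 1 or 3 or nCas9 replicate 1, up to 0.169) and of ASXL1 in ABEmax with the RNF2 guide (lost without ABEmax replicate 3 or nCas9 replicate 2, up to 0.0684). Over the 8 comparisons the number called was 2 to 6 of 9 canonical partners (22.2% to 66.7%), 1 to 17 of 23 variant partners (4.35% to 73.9%), 2 to 7 of 13 PRC2 subunits (15.4% to 53.8%), 0 to 3 of 12 deubiquitination genes (0% to 25%) and 4 to 15 of 35 HOX genes (11.4% to 42.9%), against 10.3% to 40.6% of all genes. The 0 for deubiquitination genes were in miniABEmax-V82G with HEKsite2 and SpACE with the RNF2 guide, where edgeR had 1 and 2 of them at an unadjusted p below 0.05 and DESeq2 called 0.

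Across the 11 group means of log2 CPM, the tested genes with a pattern most like that of RNF2 were BMS1 (Pearson r = 0.989), WDR3 (0.977), TDP1 (0.971), RNF141 (0.953) and PPFIBP1 (0.951), of 12974 candidates. These are descriptions over 11 points that share libraries and scaling. BMS1 is a ribosome-assembly GTPase, WDR3 a protein of the small-subunit processome and TDP1 a DNA-end repair phosphodiesterase. TDP1 had 28.55, 31.5 and 26.7 CPM in ABEmax with the RNF2 guide, against 44.05, 41.4 and 43.6 CPM with HEKsite2, and 40.95, 43.4 and 42.7 CPM in Target-AID with the RNF2 guide, against 45.55, 47.6 and 41.15 CPM with HEKsite2. TDP1 was well separated between guides in ABEmax and overlapped in Target-AID. TDP1, BMS1 and WDR3 were picked for their likeness to RNF2 over these same groups. Their similar guide contrasts therefore follow from that choice and are no separate evidence. In the guide contrast TDP1 had log2 fold changes of -0.57, -0.33, -0.08, -0.21 and -0.54 in ABEmax, miniABEmax-V82G, Target-AID, SpACE and nCas9. BMS1 had -0.41, -0.28, 0.01, -0.10 and -0.40, and WDR3 -0.31, -0.17, -0.06, -0.07 and -0.35, in the same order. The closest of the 9 partners were PCGF5 (r = 0.606), CBX8 (0.418) and RING1 (0.194).

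The genes around RNF2 on chromosome 1, chosen after its values were seen, were also examined. Of 8 genes of the table within 500 kb, 6 were tested. TRMT1L, a tRNA methyltransferase-like gene 15490 bp away, was lower with the RNF2 guide in ABEmax (-0.40 ± 0.0728, adjusted p = 0.000441), miniABEmax-V82G (-0.27 ± 0.0701, 0.013) and nCas9 (-0.32 ± 0.0695, 0.00774), and was not called in Target-AID (-0.07) or SpACE (-0.05). The nCas9 call was lost without nCas9 replicate 3 with the RNF2 guide or replicate 1 with HEKsite2 (adjusted p up to 0.0877). The miniABEmax-V82G call was lost without its replicate 1 or 3 with the RNF2 guide or replicate 2 with HEKsite2 (up to 0.0808). Its interaction terms were 0.24 for Target-AID (adjusted p = 0.462) and 0.27 for SpACE (0.564), so a difference between constructs was not called. EDEM3, 290451 bp away, was lower in nCas9 (-0.27 ± 0.0752, adjusted p = 0.0463), a call lost without any one library (adjusted p up to 0.273), and averaged over the 5 constructs (-0.19 ± 0.0337, adjusted p = 0.000141). Its log2 fold changes were -0.19 in ABEmax, -0.22 in miniABEmax-V82G, -0.01 in Target-AID and -0.23 in SpACE, not called, and its interaction terms of 0.04 to 0.26 were not called either. C1orf21, FAM129A, SWT1 and IVNS1ABP were not called in the guide contrast of any single construct by edgeR (adjusted p of at least 0.567).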

How the data were processed

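RNA was measured by stranded total RNA sequencing of 33 HEK293T libraries. The authors deposited 1 table of whole-number read counts per gene, not normalized. STAR, GATK 3.8.1, Picard 2.7 and GRCh38 are named, per the submitters' processing notes; no source used here names the counter, its strand setting or its annotation. Libraries held 6790209 to 11200406 counts; intervals reflect the spread between libraries.

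Genes were filtered on low counts with edgeR 4.0.16 (filterByExpr), scaled by TMM and fitted over all 11 groups with the quasi-likelihood test (limma 3.58.1, R 4.3.3), with Benjamini-Hochberg adjustment over all 14613 genes tested and a threshold of 0.05. Standard errors, intervals and CPM were computed from this fit, and the fits were tested on simulated data. Alternatives were DESeq2 1.42.0, RLE and upper quartile scaling, no filter, the compared groups alone, a replicate block, GFP in place of nCas9, and leaving out each library. For the joint test and the average over constructs, all libraries of 1 replicate number were left out instead. Gene positions and exon lengths came from GENCODE 29. Tables and figures used Python 3.11.15, pandas 2.3.3, numpy 2.4.6 and matplotlib 3.10.9.

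The text names the 10 genes, up to 4 called genes per list and comparison by smallest p, the 5 genes most like RNF2 (mean log2 CPM of at least 1) and the 3 of the 10 closest to it. Other list genes are named from the counts over the 8 editor comparisons, after their values were seen. The genes and lists were chosen with earlier results of these data known. Not every gene of the lists is reported here.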

Additional observations from a re-analysis of the deposited data

Results flagged for a closer look

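The difference between the RNF2 and HEKsite2 guides was not the same in every construct. For RNF2 itself, the interaction test put the guide contrast in Target-AID cells 0.72 above that in nCas9 cells on the log2 scale, and that in SpACE cells 0.60 above it. RNF2 averaged 67.3 CPM in Target-AID cells with the RNF2 guide and 36.6 CPM in nCas9 cells with the same guide. For CSNK2A1 the same test put the guide contrast in Target-AID cells 0.43 above that in nCas9 cells. All 3 differences use the same nCas9 libraries.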

How the results depend on the processing

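RLE scaling changed no count of called genes among the 10, and upper quartile scaling changed 1, to 3 in place of 4 for ABEmax against nCas9 with the RNF2 guide (PCGF6 lost). In ABEmax the guide contrast called 1 in place of 2 by DESeq2, without the filter and with only the compared groups fitted (CBX2 lost). In miniABEmax-V82G it called 3 in place of 1 with only the compared groups fitted (PCGF6 and CBX8 gained). ABEmax against nCas9 with HEKsite2 called 1 in place of 2 by DESeq2, without the filter and with only the compared groups (PCGF1 lost), and with the RNF2 guide DESeq2 called 2 in place of 4.

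With GFP in place of nCas9 the count with HEKsite2 became 4 in place of 2 for ABEmax and 5 in place of 3 for SpACE. RNF2 then changed sign. With HEKsite2 it stood at -0.20 (ABEmax), -0.23 (miniABEmax-V82G), -0.14 (Target-AID) and -0.13 (SpACE). With the RNF2 guide it stood at -1.06, -0.72, -0.23 and -0.34 in the same order. The Target-AID and SpACE values with HEKsite2 were not called by edgeR (adjusted p = 0.109 and 0.156), and the other 6 were called lower than GFP. PCGF5 changed sign to -0.05 (miniABEmax-V82G) and -0.03 (SpACE) with HEKsite2 and to -0.01 and -0.07 with the RNF2 guide. None of these PCGF5 values was called (edgeR adjusted p 0.438 to 0.905), so its calls were lost and no called opposite difference appeared. CBX2 changed sign to 0.11 in Target-AID with HEKsite2, and with the RNF2 guide to 0.19 in ABEmax, 0.03 in miniABEmax-V82G and 0.20 in Target-AID. Only its ABEmax and Target-AID values with the RNF2 guide were called. With HEKsite2, list genes changed sign in ABEmax (HOXC9 0.06), miniABEmax-V82G (AUTS2 -0.04, HOXB13 0.16, HOXC10 0.11), Target-AID (SCML1 0.09, FOXK1 -0.09, OGT -0.20) and SpACE (SCML1 0.12, PHF19 0.10, PHF1 0.29). Of these only OGT in Target-AID and PHF1 in SpACE were called against GFP. With the RNF2 guide list genes changed sign in ABEmax (OGT -0.13, HOXB13 0.26), Target-AID (SCML1 0.04, CSNK2A1 -0.36, SUZ12 -0.07, PHF19 0.14, USP16 -0.14, HOXB13 0.12) and SpACE (SUZ12 -0.39, PHF19 0.17). Of these only CSNK2A1 in Target-AID and SUZ12 in SpACE were called against GFP. nCas9 and GFP differ from each other at these genes, and the cause was not tested.

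Over all genes, the count changed by more than 1.5 times from 1452 to 2693 (miniABEmax-V82G guide contrast) and 1842 to 2865 (miniABEmax-V82G against nCas9, RNF2 guide) with only the compared groups, and from 6 to 11 for the SpACE guide contrast. Without the filter it changed from 0 to 8 (Target-AID guide contrast), 6 to 68 (SpACE guide contrast), and in the interactions from 0 to 5 (ABEmax), 2 to 18 (miniABEmax-V82G), 24 to 55 (Target-AID) and 4 to 44 (SpACE). DESeq2 gave 1, 38 and 9 for the last 3 of these. With GFP in place of nCas9 the counts with HEKsite2 were 6832 for 2318 (ABEmax), 5815 for 1511 (miniABEmax-V82G) and 5350 for 3063 (SpACE), and with the RNF2 guide 7249 for 1632, 6863 for 1842 and 5534 for 2150.

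With 1 library left out, the guide contrast called 1 of the 10 in ABEmax (2 with all). For the average over constructs, all libraries of 1 replicate number were left out at a time, and 1 to 4 were called (4). With HEKsite2 and 1 library left out, ABEmax against nCas9 called 1 to 2 (2) and SpACE 1 to 3 (3). With the RNF2 guide ABEmax called 0 to 3 (4), miniABEmax-V82G 3 to 4 (5) and SpACE 2 to 4 (4), nCas9 against GFP 3 to 5 (5), and the SpACE interaction 0 to 1 (1). RNF2 changed sign in ABEmax against nCas9 with the RNF2 guide (-0.03 to 0.16) and in the ABEmax interaction (-0.14 to 0.07). Over all genes the guide contrast of ABEmax called 181 to 301 (330), that of miniABEmax-V82G 496 to 1223 (1452), that of Target-AID 0 to 2 (0), that of SpACE 1 to 4 (6) and that of nCas9 98 to 224 (302). Their average, with all libraries of 1 replicate number left out, called 638 to 1822 (2214). With 1 library left out, the count against nCas9 with HEKsite2 was 1445 to 2163 in ABEmax (2318) and 858 to 1197 in miniABEmax-V82G (1511), and with the RNF2 guide 827 to 1311 in ABEmax (1632), 874 to 1495 in miniABEmax-V82G (1842) and 1432 to 1768 in SpACE (2150). The interactions called 1 to 2 (miniABEmax-V82G, 2) and 7 to 39 (Target-AID, 24).

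The replicate numbers were not taken to pair the samples. Same-numbered libraries correlated at -0.22 to 0.23 in their deviations from group means (median 0.028, 31 of 165 pairs above 0.1), and differently numbered ones at -0.23 to 0.22 (median -0.011, 19 of 330 pairs above 0.1). The replicate block called 2 in place of 1 in the miniABEmax-V82G guide contrast (CBX8 gained) and 1 in place of 2 in ABEmax against nCas9 with HEKsite2 (PCGF1 lost), and 7 in place of 4 genes overall in the SpACE interaction. BMI1 and PCGF2, at a few CPM, are the least precisely measured, and small differences there were not detectable at this depth.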
